A study of Mus musculus with 12 samples.

Results

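Brevican (Bcan), neurocan (Ncan), CD44 (Cd44), tenascin-C (Tnc) and receptor-type tyrosine phosphatase zeta (Ptprz1) are 5 genes of the brain's extracellular matrix and of the cell surface that binds it. They were chosen by name, and the deposited table held 1 row for each among its 14899 genes. RNA came from mouse cells that carry 1 genome of strain 129Sv and 1 of strain Cast/EiJ, so that reads over strain variants show their allele. The study is about random monoallelic expression, where single cells settle on 1 allele of a gene and their descendants keep it.

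The neural progenitor (NPC) lines were 4 XX clones named 129, C2, G4 and E1.2, derived from ES line F1-21.6, and 4 XY clones named mC3, mE6, mB4 and mG3, derived from ES line F1-23. Each clone descends from its own cell and enters with 1 library (repeat libraries of C2 and mC3 were not analysed here), so the spread between libraries of a group is a spread between clones. The ES groups were F1-21.6 (XX) and F1-23 (XY), with 1 library each, grown with serum and LIF on a layer of mitomycin-treated mouse embryonic fibroblasts. All groups share the hybrid genome. The labels do not give the strain of the fibroblast layer. In the labels the library names of XX clones start differently from all the rest, so that among clones the line, the sex chromosomes and the set of libraries cannot be told apart.

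Brevican and neurocan are lecticans, chondroitin sulfate proteoglycans of nervous tissue that bind hyaluronan at one end and tenascins at the other. Tenascin-C is a large matrix glycoprotein, not a proteoglycan, made by radial glia and astrocytes, and CD44 is a cell surface receptor for hyaluronan. PTPRZ1 is a transmembrane phosphatase of neural progenitors and glial cells that is itself modified with chondroitin sulfate and binds tenascins, contactins and pleiotrophin.

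Counts informative for the allele summed to between 61375911 and 119266777 per library, and the median 129 share of autosomal genes lay between 49.8% and 50% in every library. FPKM scale fragments by the length of the transcript and by depth, and allow levels to be compared between genes. The summed FPKM of 7 neural progenitor markers was 2857 to 5558 in NPC clones and 381 to 431 in ES lines, with none of the 7 at 0 counts in any clone. Sox2 in that list went the other way, at 45.9 to 94.3 FPKM in NPC clones, 248 in F1-21.6 and 217 in F1-23. For 3 pluripotency markers in the table the sum was 2.09 to 4.65 in NPC clones and 266 to 443 in ES lines. For 7 fibroblast markers the sum was 41.1 in E1.2 and 0.925 to 5.17 in the other 7 clones, and it was 25.1 in F1-21.6 and 44.4 in F1-23. Clone E1.2 also had the highest FPKM of the astrocyte markers Gfap (5.32), Aqp4 (29.5) and S100b (82.9). For Gja1 (69.8) it lay below mG3 (76.4), and for Aldoc (60.2) below mB4 (153). Its astrocyte marker sum, 248, was below that of mB4 (269). It had the lowest FPKM of the progenitor marker Nes (73.0, against 194 to 347 in the other clones). Its progenitor marker sum, 3458, lay inside the range of the other clones. Over the whole astrocyte list of 5 genes the sum was 88.7 to 269 in NPC clones and 94.8 to 103 in ES lines. Over 5 oligodendrocyte precursor markers it was 919 to 1390 in NPC clones and 1.16 to 1.43 in ES lines. Nearly all of that NPC sum came from Olig1 and Olig2. Pdgfra was at 0.202 to 1.43 FPKM in NPC clones and 0.432 and 0.427 in ES lines, and Gpr17 was at most 0.0558. Cspg4 was at 3.95 to 4.63 FPKM in mC3, mE6 and mB4, and at most 0.167 in the remaining clones. In the ES lines Cspg4 was at 0.238 and 0.536 FPKM. In RNA from many cells, fewer cells of a type and less RNA per cell cannot be told apart.

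All 5 genes are protein-coding and autosomal. In mm9, Bcan lies on the minus strand of chromosome 3 (chr3:87791453-87804278), Ncan on the minus strand of chromosome 8 (chr8:72616984-72644743) and Cd44 on the minus strand of chromosome 2 (chr2:102651300-102741822). Tnc lies on the minus strand of chromosome 4 (chr4:63620719-63708328) and Ptprz1 on the plus strand of chromosome 6 (chr6:22824607-23002916). No other gene of the table overlaps any of them. The bases before the start site are shown for Ncan and Cd44, whose allele share varied most between clones, and for Ptprz1, whose share varied least.
Ncan, chr8:70120845-70121094, minus strand: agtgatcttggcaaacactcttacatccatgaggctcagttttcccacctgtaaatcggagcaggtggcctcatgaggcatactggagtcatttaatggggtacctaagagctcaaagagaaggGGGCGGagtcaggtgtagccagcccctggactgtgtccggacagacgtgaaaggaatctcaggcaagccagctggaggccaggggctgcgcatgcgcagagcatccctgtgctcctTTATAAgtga
Cd44, chr2:102901666-102901915, minus strand: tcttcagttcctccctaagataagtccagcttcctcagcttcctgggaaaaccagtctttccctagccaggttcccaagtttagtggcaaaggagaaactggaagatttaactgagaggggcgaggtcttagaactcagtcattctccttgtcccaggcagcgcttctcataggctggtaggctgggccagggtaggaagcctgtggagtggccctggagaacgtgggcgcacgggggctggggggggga
Ptprz1, chr6:22875252-22875501, plus strand: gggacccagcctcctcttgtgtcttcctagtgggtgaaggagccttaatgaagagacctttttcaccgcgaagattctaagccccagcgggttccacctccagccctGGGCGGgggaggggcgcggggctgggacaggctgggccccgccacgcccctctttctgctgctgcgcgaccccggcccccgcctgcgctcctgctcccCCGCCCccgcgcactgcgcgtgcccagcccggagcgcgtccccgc
The sequences are the 250 bases upstream of the RefSeq start in GRCm38.p6, a later build than that of the table, written 5′ to 3′ in the direction of transcription. Capitals mark matches on either strand to 3 motifs picked after the sequences had been read. The first is the core of the TATA box, searched as TATAA. The second is the core of the GC box bound by Sp1 family factors, searched as GGGCGG. The third is the octamer bound by POU factors, searched as ATGCAAAT. Both strands of the TATA box core match in Ncan, and there the capitals run over both.

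Ncan held the TATA box core, found in 23.5% of 27025 promoters of the same length, and the GC box core, found in 32.9%. None of the 3 motifs occurred in the window of Cd44, and the GC box core occurred at 2 places in that of Ptprz1. In windows not printed, Bcan held the GC box core. Tnc, at the more downstream of its 2 listed starts, held all 3, among them the octamer, which occurs in 1.61% of promoters. The ratio of observed to expected CpG dinucleotides was 0.329 for Ncan and 0.257 for Cd44, below the median of 0.378 over all promoters. It was 0.808 for Bcan, 0.698 for Ptprz1 and 0.620 for Tnc, above that median. A match is a string of letters and does not show binding.

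The first comparison set NPC clones against the ES lines. All 5 genes were higher in every NPC clone than in either ES line, Bcan by the largest factor and Cd44 by the smallest. Brevican, a lectican of the perineuronal nets of the adult brain, was at 386, 415, 219 and 321 FPKM in the XX clones (129, C2, G4, E1.2) and at 264, 312, 330 and 309 in the XY clones (mC3, mE6, mB4, mG3). In the ES lines it was at 0.159 FPKM in F1-21.6 and 0.285 in F1-23, from 73 and 140 counts. The NPC mean was 319 ± 62.2 FPKM (SD, n = 8), which ranked 80th from the top among 10521 genes with a median of at least 1 FPKM in the clones. Counts differed by 10.76 ± 0.49 on the log2 scale (SE; edgeR's quasi-likelihood test, Benjamini-Hochberg adjusted p = 6.99e-07).

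Neurocan, a lectican prominent in the developing brain, was at 24.7, 32.1, 52.8 and 66.1 FPKM in the XX clones (129, C2, G4, E1.2). It was at 71.4, 63.9, 86.1 and 61.7 FPKM in the XY clones (mC3, mE6, mB4, mG3), against 0.342 in F1-21.6 and 1.44 in F1-23. Clone 129 was lowest and mB4 highest, and the lowest clone was far above both ES lines. The log2 difference of counts was 6.40 ± 0.61 (SE; edgeR's quasi-likelihood test, adjusted p = 2.86e-05).

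Tenascin-C varied most among clones. It was at 267, 320, 172 and 34.9 FPKM in the XX clones (129, C2, G4, E1.2), and at 511, 412, 192 and 490 in the XY clones (mC3, mE6, mB4, mG3). The ES lines had 2.98 FPKM (F1-21.6) and 6.58 (F1-23). E1.2 stood lowest, and the highest clone was 14.6-fold above it. The log2 difference of counts between NPC clones and ES lines was 6.08 ± 0.95 (SE; edgeR's quasi-likelihood test, adjusted p = 0.00049), and without E1.2 it was 6.25 (adjusted p = 4.18e-05).

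Ptprz1 was at 84.2, 198, 199.95 and 183 FPKM in the XX clones (129, C2, G4, E1.2). The XY clones (mC3, mE6, mB4, mG3) had 252, 247, 286 and 166 FPKM, and the ES lines 0.334 (F1-21.6) and 0.828 (F1-23). Clone 129 was lowest, below every other clone. Counts were higher in NPC clones by 8.72 ± 0.66 on the log2 scale (SE; edgeR's quasi-likelihood test, adjusted p = 8.27e-06).

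Cd44 was the least abundant of the 5 in NPC clones, and in the ES lines it was at a few FPKM, as Tnc was. It was at 9.72, 10.2, 8.13 and 8.03 FPKM in the XX clones (129, C2, G4, E1.2) and at 14.5, 18.3, 12.9 and 16.3 in the XY clones (mC3, mE6, mB4, mG3). In F1-21.6 it was at 2.75 FPKM and in F1-23 at 3.88. Each clone exceeded both ES lines, with a log2 difference of counts of 1.95 ± 0.18 (SE; edgeR's quasi-likelihood test, adjusted p = 2.56e-05).

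Of all 14561 genes tested in NPC against ES, 63% passed, 33.3% higher and 29.7% lower, with a median log2 change of 0.11. A call on its own is therefore common, and it is the size of the changes that sets 4 of the 5 genes far from that median. On FPKM, NPC clones and ES lines did not overlap for any of the 5 genes (exact two-sided permutation p = 0.0444 for each, the smallest that 45 splits allow). Among all genes, 31.9% were without overlap and higher in NPC clones. All 5 calls of the count test were kept under each of 17 other settings, including the fit restricted to libraries of 1 name prefix, and without F1-23 the log2 difference was 7.19 for Ncan and 11.39 for Bcan. No difference in the fold between the XX and the XY line passed for any of the 5 (edgeR's quasi-likelihood test of the interaction, adjusted p from 0.413 to 1, where 0.101% of genes passed), and with 1 ES library per line it is set by single ES values.

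**Figure D1:**
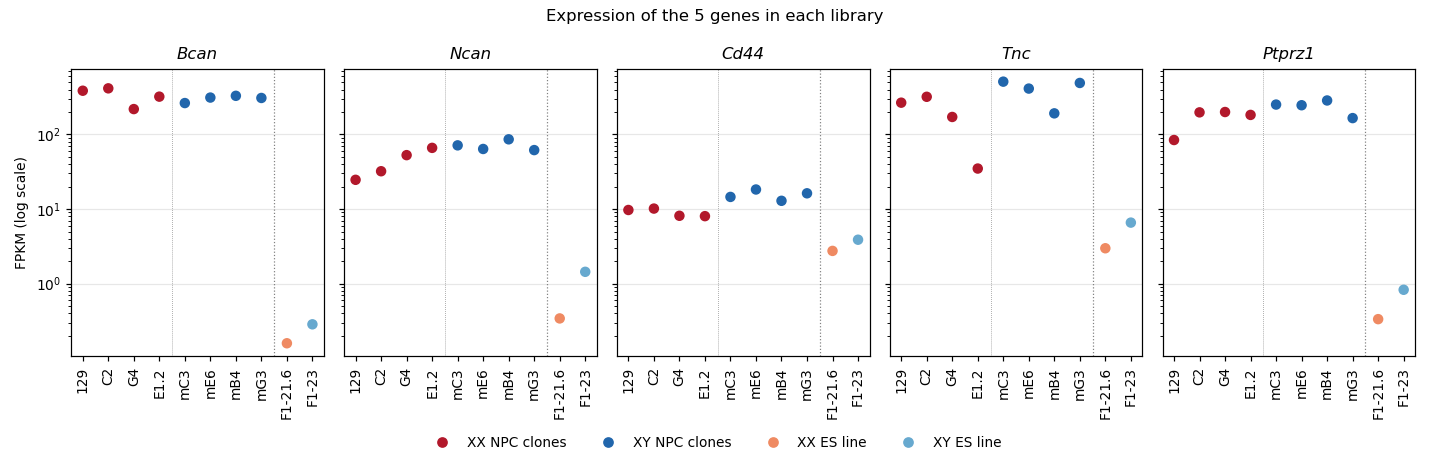
FPKM of the 5 genes (log scale) in each library, with XX NPC clones, XY NPC clones and ES lines from left to right and 1 point per library. Every clone lies above both ES lines for each gene, and Tnc in E1.2 (34.9 FPKM) lies below the other clones.

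Per length, the mean NPC level was highest for Bcan, followed by Tnc (299.8 ± 166 FPKM), Ptprz1 (202 ± 62.1), Ncan (57.4 ± 20.3) and Cd44 (12.3 ± 3.85, SD, n = 8 each). The intervals of mean ± SD of Bcan, Tnc and Ptprz1 overlapped, and differences in level between these genes were not tested. Tnc exceeded Bcan in XY clones mC3, mE6 and mG3. Among 10521 genes the median coefficient of variation over the clones was 18.0%. Bcan, at 19.5%, lay near that median, Ptprz1 (30.8%), Cd44 (31.4%) and Ncan (35.4%) above it, and Tnc (55.4%) at the 92.4th percentile.

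The clones also let the 5 genes be set beside each other. As a description over 8 clones that share their library sets, log2(FPKM + 1) of Ncan and Ptprz1 had a Pearson r of 0.80 (Spearman rho 0.74; 0.69 with each line centred), and Cd44 and Tnc had 0.73 (rho 0.83; 0.65 centred). Bcan and Ncan, both lecticans, had -0.54 (rho -0.29). Ncan and Tnc had -0.12 over all clones and -0.83 with each line centred.

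Genes with the most similar pattern over the same 8 clones were searched among all 10520 others with a median of at least 1 FPKM. For Ptprz1 they included Med12;Nlgn3 (a row of joined names) and Fez1. For Cd44 they were the chaperone gene Hsp90aa1 (r 0.99, rho 0.95), Hat1 and Pcyt1a. For Ncan they were Arl5a (r 0.99, rho 1), Sar1b and Nqo1, for Tnc they were Ppil1 (r 0.99, rho 0.90), Srsf4 and Ppp4r1, and for Bcan they were Map2k7 (r 0.96, rho 1), Xab2 and Pank4. Among so many genes, the highest of 10520 values over 8 points is high by selection.

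XX and XY NPC clones were compared next, as the only replicated comparison between the lines. Cd44 was lower in XX clones, at 9.01 ± 1.09 FPKM, than in XY clones, at 15.5 ± 2.31 (SD, n = 4 each), and the groups did not overlap (exact two-sided permutation p = 0.0286, the smallest that 70 splits allow). Of all genes, 11.5% had XX clones below XY clones without overlap. By counts the log2 difference of Cd44 was -0.78 ± 0.15 (SE; edgeR's quasi-likelihood test, adjusted p = 0.04998), where 1.29% of 13591 genes passed and 0.412% were lower in XX clones. That call lay at the threshold. It was lost without the filter on low counts (adjusted p = 0.0537) and when any 1 clone other than 129 was left out (adjusted p from 0.0751 to 0.142), while without clone 129 it was kept (adjusted p = 0.0419).

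None of the other 4 genes passed between XX and XY clones. The log2 differences of counts were -0.68 for Ncan (adjusted p = 0.239), -1.02 for Tnc (0.334), -0.40 for Ptprz1 (0.494) and 0.21 for Bcan (0.533), all by edgeR's quasi-likelihood test. Mean FPKM of Tnc was 198 ± 125 in XX clones and 401 ± 146 in XY clones (SD, n = 4 each), with mB4 inside the range of the XX clones. Ncan averaged 43.9 ± 19.0 FPKM in XX clones and 70.8 ± 11.002 in XY clones, with E1.2 above 2 of the XY clones.

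Allele use was measured as the share of informative counts from 129. A gene was called monoallelic in a library with at least 20 counts, a major allele of at least 85% and a binomial test against equal shares that passed after adjustment within the library. Ncan was called monoallelic in 1 XX clone and Cd44 in 2 XX clones, and neither was in any XY clone. Of 12108 autosomal genes measured in at least 6 clones, 16.5% were monoallelic in at least 1, and of 6949 genes with at least 1000 counts in every clone, 4.12%. Ncan and Cd44 belong to the deeper set.

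Neurocan RNA in clone 129 came from the 129 allele, with 1 Cast count among 5334 and a 129 share of 99.98% (95% Clopper-Pearson interval 99.8956 to 99.9995, counting error only, as for all intervals here). In the other XX clones (C2, G4, E1.2) its share was 49.1%, 43.1% and 52.2%, and in the XY clones (mC3, mE6, mB4, mG3) it was 48.4%, 49.6%, 52.6% and 47.3%. The ES lines had 54.3% of 70 counts (F1-21.6) and 51.9% of 291 (F1-23). Clone 129 thus stood alone, and the other 9 libraries lay near equal shares.

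The 129 share of Cd44 was 99.9% in clone 129, with 12 Cast counts among 11885, and 88.3% in E1.2, with 1806 Cast counts among 15493. It was 40.3% in C2 and 41.8% in G4, and in the XY clones (mC3, mE6, mB4, mG3) it was 42.2%, 46.5%, 42.8% and 41.5%. In the ES lines it was 65.8% (F1-21.6) and 50.6% (F1-23). The 6 clones with both alleles all leaned to Cast, and the pair with a major allele leaned to 129. E1.2 passes a limit of 85% but not one of 95%.

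Brevican was expressed from both alleles in every clone. Its 129 share was 49.9%, 52.7%, 67.8% and 65.0% in the XX clones (129, C2, G4, E1.2) and 50.6%, 49.2%, 51.7% and 46.7% in the XY clones (mC3, mE6, mB4, mG3). G4 and E1.2 stood above the other 6 clones, from 200755 and 299462 counts. In the ES lines the share was 84.9% of 73 counts (interval 74.6 to 92.2) in F1-21.6 and 40% of 140 in F1-23.

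Tnc leaned to 129 in all clones, with 59.8%, 60.04%, 63.2% and 71.4% in the XX clones (129, C2, G4, E1.2) and 50.5%, 52.1%, 53.9% and 53.5% in the XY clones (mC3, mE6, mB4, mG3). In both ES lines, by contrast, it was called monoallelic for 129. The share was 99.0% in F1-21.6, with 12 Cast counts among 1217, and 94.4% in F1-23, with 152 among 2719. Of the genes measured in both ES lines, 6.81% were monoallelic in at least 1. Among autosomal genes with at least 1000 counts in the library, as Tnc had, 1.01% were monoallelic in F1-21.6 and 1.02% in F1-23. Fibroblast markers were also measured in these libraries. Their summed counts had a 129 share of 87.6% in F1-21.6 and 69.3% in F1-23, Col1a1 97.3% and 61.0%, and Postn 100% and 85.1% in the same libraries. Dcn, at lower counts, had 61.5% of 26 in F1-21.6 and 12.7% of 71 in F1-23, where it was called monoallelic for Cast. Their part in the ES values of Tnc and Cd44 was not tested, and the strain of the fibroblast layer is not in the labels.

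Ptprz1 had the narrowest range. Its share was 55.4%, 53.5%, 54.5% and 55.1% in the XX clones (129, C2, G4, E1.2) and 55.1%, 55.7%, 56.4% and 54.5% in the XY clones (mC3, mE6, mB4, mG3), from 82210 to 338504 counts. In ES lines the direction was the other one, with 36.6% of 303 counts in F1-21.6 and 12.8% of 782 (interval 10.5 to 15.3) in F1-23, where Ptprz1 was called monoallelic for Cast.

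**Figure D2:**
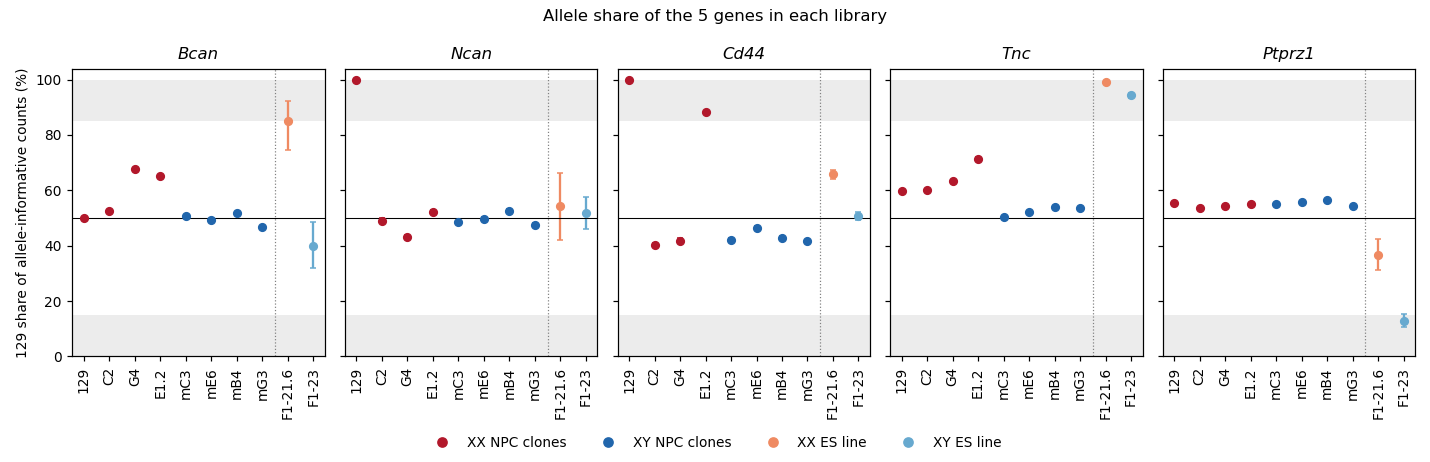
Share of informative counts from the 129 allele, in percent, for the 5 genes in each library (XX NPC clones, XY NPC clones, ES lines from left to right), with exact 95% intervals of counting error and grey bands at a major allele of at least 85%. Ncan in clone 129 and Cd44 in clones 129 and E1.2 lie in the upper band, as does Tnc in both ES lines.

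A test of equal 129 shares across the 8 clones, with an overdispersion set by genes of like depth, passed for 20.7% of 12103 genes. It passed for 4 of the 5 (Benjamini-Hochberg adjusted p = 3.68e-238 for Cd44, 1.08e-124 for Ncan, 1.82e-21 for Bcan and 7.96e-17 for Tnc) and not for Ptprz1 (adjusted p = 1). The share ranged over 59.6 points for Cd44, 56.8 for Ncan, 21.1 for Bcan, 20.9 for Tnc and 2.93 for Ptprz1. Among 8266 genes with a mean of at least 1000 counts the median range was 7.57 points and the 90th percentile 25.3. Cd44 and Ncan lay above that percentile, Bcan and Tnc below it. Without clone 129 the range of Ncan was 9.49 points (adjusted p = 0.0460), and without E1.2 that of Tnc was 12.8 points (adjusted p = 4.14e-07).

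Splitting FPKM by the allele share gives each allele's level. In clone 129 the 129 allele of Ncan was at 24.7 FPKM and the Cast allele at 0.00462. In the other 7 clones the 129 allele ranged from 15.8 to 45.3 FPKM and the Cast allele from 16.4 to 40.8. The 129 allele of clone 129 thus lay inside the range of the other clones, and the total of both alleles was the lowest of the 8 clones, below 32.1 to 86.1 FPKM.

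For Cd44 in clone 129 the 129 allele was at 9.71 FPKM and the Cast allele at 0.00981, and in E1.2 they were at 7.10 and 0.936. In the other 6 clones the 129 allele ranged from 3.40 to 8.50 FPKM and the Cast allele from 4.73 to 9.79. The 129 allele of clone 129 lay above that range, and its total was the third lowest of 8, while that of E1.2 was the lowest. Both are XX clones, a group in which Cd44 was lower in every clone than in any XY clone. In the other XX clones, C2 and G4, the 129 allele was at 4.09 and 3.40 FPKM. Their totals were 10.2 and 8.13 FPKM, beside 9.72 in clone 129 and 8.03 in E1.2.

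Tnc in E1.2 was low from both alleles, at 24.9 FPKM from 129 and 10.0 from Cast, against 103 to 262 and 63.1 to 253 in the other clones. Bcan in G4 had 148 FPKM from 129, inside the 134 to 219 of the 6 clones other than G4 and E1.2, but 70.5 from Cast, below their 130 to 197. In E1.2 the alleles of Bcan were at 209 and 112 FPKM, the first inside and the second below those ranges.

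**Figure D3:**
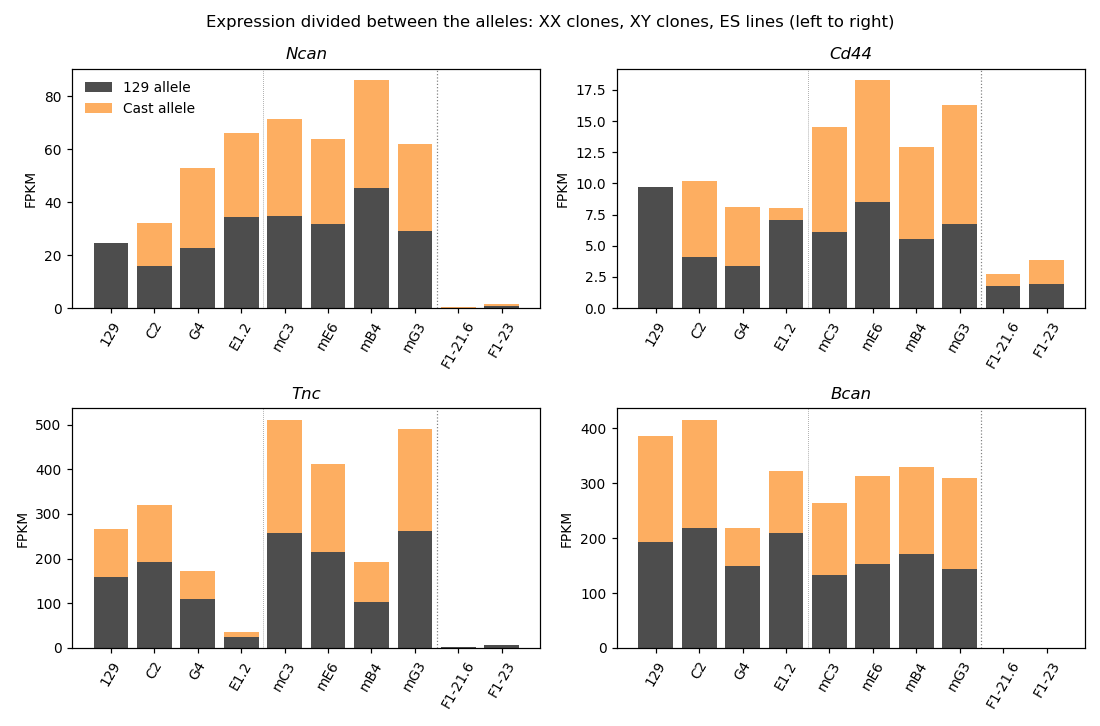
FPKM of Ncan, Cd44, Tnc and Bcan divided into the 129 allele (dark) and the Cast allele (light) by the allele share, with XX NPC clones, XY NPC clones and ES lines from left to right and each panel on its own scale from 0. The Cast part is missing for Ncan and Cd44 in clone 129 and small for Cd44 in E1.2.

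Genes next to Ncan and Cd44 were read to see whether they shared the call. Within 1 Mb of Ncan, 49 other genes had at least 100 counts in clone 129. Their median 129 share was 49.6%, 46 of them lay between 30% and 70%, and 0 were monoallelic. Within the same distance of Cd44, 12 genes had a median of 51.2% in clone 129 and 51.4% in E1.2, and 0 were monoallelic in either clone. All 12 lay between 30% and 70%, in clone 129 from 45.7% to 68.8% and in E1.2 from 46.0% to 58.3%. The highest in clone 129 was Slc1a2, which lies nearest to Cd44, at 20359 bp, and was at 50.7% in E1.2. Slc1a2 was named after its values had been seen. The monoallelic calls of Ncan and Cd44 in these clones were thus not seen in the measured genes around them.

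The gene nearest to Ncan, Hapln4, lies 2141 bp away and encodes a link protein that stabilises the binding of lecticans to hyaluronan. It was singled out for its place after its values had been seen. Hapln4 was at 0.0665 FPKM in clone 129, from 13 counts that were all from 129, and at 0.509 to 2.61 FPKM in the other 7 clones. With fewer than 20 counts it could not be called, and it was not among the 49 genes. Around Tnc in E1.2, 6 genes had a median of 56.6% and 2 were monoallelic, and in each ES line 1 of 6 was.

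**Figure D4:**
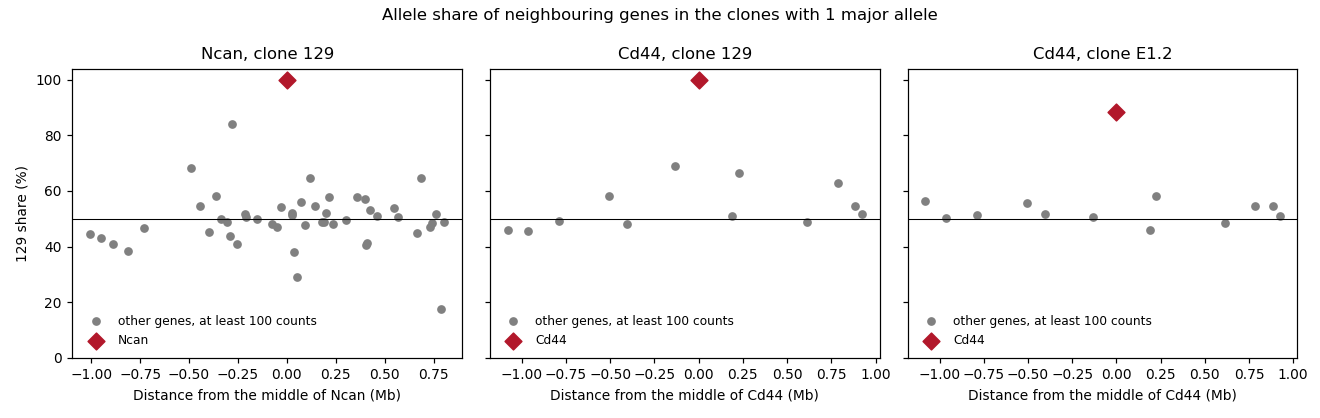
129 share in percent of genes within 1 Mb and with at least 100 counts (grey) against their distance in Mb from the middle of Ncan in clone 129, of Cd44 in clone 129 and of Cd44 in E1.2, with the gene itself as a red diamond. The neighbours scatter around 50% while Ncan is at 99.98% and Cd44 at 99.9% and 88.3%.

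A comparison of the 129 share between the lines was added after the values had been seen. For Tnc it was 63.6% ± 5.41 in XX clones and 52.5% ± 1.57 in XY clones (SD, n = 4 each), a difference of 11.1 points without overlap (exact two-sided permutation p = 0.0286, the smallest that 70 splits allow). Among 11253 genes, 5.48% were without overlap, 2.65% with XX clones above XY clones. The difference was 8.50 points without E1.2, where the smallest possible p of 0.0571 does not pass. Bcan differed by 9.28 points (exact permutation p = 0.0857), Cd44 by 24.4 (p = 0.4), Ncan by 11.6 (p = 0.714) and Ptprz1 by -0.82 (p = 0.2), and these did not pass. Without clone 129 the difference of Ncan was -1.33 points.

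The 5 genes were then set beside 91 other genes of the table from 9 lists of matrix biology. In NPC clones against ES lines, 46 of the 91 were higher and 15 lower by edgeR's quasi-likelihood test, with a median log2 change of 1.14, against 33.3%, 29.7% and 0.11 over all genes. Between XX and XY NPC clones 0 of 87 passed, where 1.29% of all genes did, and for the interaction 0 of 91, where 0.101% did, so both counts lie near the background.

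Of the other lecticans, Acan (aggrecan, best known from cartilage) fell by 5.09 on the log2 scale, at 0.0627 ± 0.0342 FPKM in NPC clones (SD, n = 8) and 1.79 and 1.65 FPKM in the ES lines (adjusted p = 2.51e-06, edgeR's quasi-likelihood test, as for all of these). Vcan (versican), the remaining lectican, was higher by 2.01, at 38.1 ± 12.7 FPKM in NPC clones and 8.70 and 8.59 in ES lines (adjusted p = 0.0039). All 3 lecticans other than Acan therefore rose. Of 3 link protein genes tested, Hapln3 fell by 1.57 (adjusted p = 0.0481, lost in 7 of 10 fits that left out 1 library, up to 0.304) and Hapln1 and Hapln4 did not pass, so no link protein gene was called higher. Of 3 tenascins, Tnr (tenascin-R, a ligand of the lecticans) rose besides Tnc. It had 264 to 932 counts in the clones and 0 in F1-21.6 and F1-23, which makes it at least 275-fold higher against 3 counts over the ES group (adjusted p = 3.95e-05). Its level was low, at 0.686 ± 0.334 FPKM in NPC clones (SD, n = 8), 0 in F1-21.6 and 0.0096 in F1-23.

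Among 18 enzymes that build chondroitin sulfate, the sugar chain of the proteoglycans, 14 rose and 1 fell, with a median log2 change of 1.19. Of all genes, 33.3% rose and 29.7% fell. Chst7, an X-linked sulfotransferase, was at 60.2 ± 11.6 FPKM in NPC clones (SD, n = 8) and at 0.636 and 0.625 in ES lines, a log2 change of 5.42 (adjusted p = 4.78e-05). Dse, the epimerase that turns chondroitin into dermatan sulfate, fell by 1.72 (adjusted p = 0.00146).

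Of 16 other proteoglycan core proteins, 7 rose and 2 fell, where 33.3% of all genes rose and 29.7% fell. Gpc5, a glypican, had 18 to 2151 counts in the clones and 0 in the ES lines, and passed (adjusted p = 0.0188). Against 3 counts over the ES group its mean over the clones was at least 129.7-fold higher, and without E1.2, which had the most counts, at least 39.6-fold (adjusted p = 0.00783). The call was lost without F1-21.6 (adjusted p = 0.133) or F1-23 (0.0582), and on FPKM clone 129 (0.0537) was level with F1-21.6 (0.0508). Gpc3, another glypican, fell by 6.22 (adjusted p = 1.38e-06). Of 14 proteases that cut lecticans and their inhibitors, 7 rose and 1 fell, beside 33.3% and 29.7% of all genes. Both extremes were tissue inhibitors of metalloproteinases, Timp4 higher by 6.57 (adjusted p = 0.00041) and Timp1 lower by 6.07 (adjusted p = 0.00251).

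Of 11 ligands and partners of Ptprz1, 8 rose and 0 fell, where 33.3% of all genes rose and 29.7% fell. Chl1, a neural cell adhesion molecule, rose by 11.73 (adjusted p = 0.00169), with 1863 to 71612 counts in the clones and 0 and 15 in the ES lines. Ptn (pleiotrophin), chosen for its role after its values had been seen, was at 1326 ± 473 FPKM in NPC clones (SD, n = 8) and at 0.538 and 0.505 in ES lines (log2 change 11.02, adjusted p = 8.17e-07). Midkine (Mdk), its relative, did not pass (adjusted p = 0.0831), at 37.2 ± 37.4 FPKM in NPC clones and 189 and 287 in ES lines, though it passed as lower under 4 of 17 other settings. Both ligand and receptor, Ptn and Ptprz1, were thus high in the same clones.

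Of 9 genes of hyaluronan synthesis, breakdown and binding other than Cd44, 1 rose and 3 fell, where 33.3% of all genes rose and 29.7% fell. Has2, a hyaluronan synthase, fell by 3.53 (adjusted p = 0.0186), with 0 to 21 counts in the clones and 18 and 218 in ES lines, a call lost without F1-23 (adjusted p = 0.452). Of 16 receptors, ligands and adaptors of tenascin-C and CD44, 7 rose and 6 fell, beside those same shares of all genes. Itgb8, an integrin subunit, rose by 7.81 (adjusted p = 0.000174), and Spp1 (osteopontin, a ligand of CD44) fell by 6.85 (adjusted p = 2.8e-05), at 2.49 ± 1.67 FPKM in NPC clones and 284 and 234 in ES lines. The fibroblast marker sum, too, was lower in 7 of the 8 clones than in either ES line, and its part in the genes that fell was not tested.

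**Figure D5:**
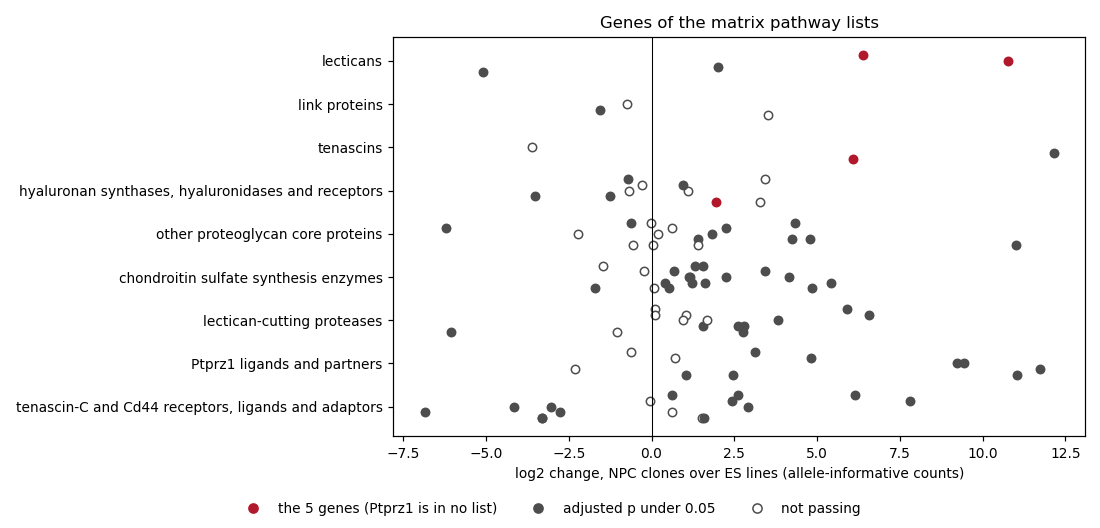
Log2 change of counts, NPC clones over ES lines, for every tested gene of the 9 matrix lists, with the lists down the page. Those of the 5 genes that are in a list are in red, and Ptprz1, in no list, is not shown. Other genes with an adjusted p under 0.05 are filled and those not passing open. Genes of chondroitin sulfate synthesis (14 of 18 passing as higher) and partners of Ptprz1 (8 of 11 passing as higher) lie mostly to the right of 0.

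Single-allele use in at least 1 clone was also read over the lists. Of 77 autosomal list genes other than the 5, 20 (26%) were monoallelic in at least 1 clone, beside 16.5% of all genes. With at least 500 counts in such a clone there were Tnr, Tlr4, Cspg4, Gpc2, Ust, Mmp14, Mmp2, Chl1, Anxa2, Ezr, Itga7 and Spp1. Ust, an enzyme that sulfates chondroitin and dermatan chains, resembled Ncan in form, with a 129 share of 0.60% in mE6 and 43.8% to 53.6% in the other 7 clones. Gpc2, a neural glypican, had 92.6% in clone 129 and 54.8% to 69.7% in the others. Mmp14, a membrane protease, came from 129 in clones 129 (94.95%) and mE6 (99.4%), and Mmp2, the protease it activates, from Cast in mE6 (129 share 2.14%). Cspg4 (NG2, a proteoglycan of oligodendrocyte precursors) came from Cast in XY clones mC3, mE6 and mB4, where it had 4337 to 5308 counts, and had 45 to 135 counts in the other 5 clones.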

How the data were processed

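The members and gene lists were chosen with earlier results of these data known. Polyadenylated RNA of 8 NPC clones and 2 ES lines was read as paired 100 bp reads; 2 repeat libraries were not analysed here. The deposited table gives, per gene and library, a count (whole numbers, taken as informative for the allele), the 129 share of it (a ratio, printed here in percent) and FPKM. TopHat 1.4.0, Cufflinks 1.3.0, SAMtools and build mm9 are named in the submitters' processing notes, without the step each served; the variant list is not given in the sources used here. Counts times share were whole within 0.01 for all 137698 autosomal values. Intervals are exact Clopper-Pearson 95% and cover counting error only. They and the binomial test of the monoallelic calls treat counts as independent of each other. It is not known here whether single reads that span more variants add to the count repeatedly. If they do, the intervals are too narrow and the p-values of the calls too small.

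Counts were tested in edgeR 4.0.16 (TMM, filterByExpr, quasi-likelihood F test, Benjamini-Hochberg 0.05 over all genes), with line as covariate for NPC against ES. DESeq2 1.42.0 and limma 3.58.1 on log2(FPKM + 1) were alternatives. The standard error is the log2 change over the root of F. FPKM and shares of single genes were compared by exact permutation of log2(FPKM + 1) means or of shares (SciPy 1.17.1). Allele heterogeneity was a chi-square over clones with a beta-binomial overdispersion taken from genes of like depth. The count test and the allele heterogeneity test were also run on simulated data drawn with the same spread for every gene. Those runs do not check whether the p-values hold at the spread of the real data. Labels do not say that clones were cultured apart, so p-values of the count and permutation tests measure the spread between clones. Those of allele heterogeneity are set against the overdispersion of other genes. Those of monoallelic calls are set against counting error within 1 library. Table starts were raised by 1 to count from 1, since 4977 of 12975 matched genes began 1 base before GENCODE and 432 at it. Beside the 5 genes, the named genes are the largest passing change in each direction of each list, the 3 genes most like each member (1 of them is not reported here), and list genes monoallelic in 1 to 7 clones with at least 500 counts. Others are named as chosen after their values were seen.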

Additional observations from a re-analysis of the deposited data

Results flagged for a closer look

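Among 20 sets of 4 clones (share and FPKM of each gene in XX and in XY clones), 2 held a clone whose gap to the nearest of the others, over the whole range, passed Dixon's critical value of 0.829, and chance alone gives such a gap in about 1 of 20 sets. The 129 share of Ncan in XX clone 129, at 99.98%, had a gap of 0.840 of the range, with the other XX clones between 43.1% and 52.2%. Ptprz1 in the same clone, at 84.2 FPKM, had a gap of 0.852 of the range, with the other XX clones between 183 and 199.95 FPKM. Clone 129 thus held both values, at a total count of 66611144, the lowest of the NPC clones.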

How the results depend on the processing

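No paired analysis was possible because the replicate numbers follow accession order and pair neither XX with XY clones nor NPC with ES libraries. Between XX and XY NPC clones, 175 genes passed (119 higher and 56 lower in XX); DESeq2 gave 1935 (1127 and 808), limma on log2(FPKM + 1) gave 522 (160 and 362), limma on log2(FPKM + 0.1) gave 471 (152 and 319), and leaving out 1 clone gave 7 to 496. The interaction had 15 genes, 562 with DESeq2, and 291 and 39 with limma at pseudocounts of 1 and 0.1. The log2 interaction of Tnc, 0.07, was -0.38 and -0.20 with limma, and that of Ptprz1 was -0.11 with limma on log2(FPKM + 1). A monoallelic call was made for 6.80% of genes per clone on average, 3.63% at a major allele of 95% and 4.06% at 100 counts; of the 6 calls of the 5 genes, 3 remained at 95%. By permutation of FPKM, 5 genes passed for NPC against ES and 1 for XX against XY clones, and with 1 library left out 0 passed in both, because the smallest possible p was then 0.0556 or 0.222, and 0.0571. With 1 clone left out, the share difference of Ncan between XX and XY clones ran from -1.33 points (without clone 129) to 17.6, and the FPKM difference of Bcan from -0.0094 (without C2) to 0.30 on the log2 scale. Cd44 between XX and XY clones had an adjusted p of 0.000124 with DESeq2 and of 0.0344 with limma on log2(FPKM + 1). The cause of these shifts was not tested. Genes called for NPC against ES (7032 to 9770 over 17 settings) and for allele shares among clones (2187 to 3567 over 10) stayed within 1.5 times the values given. The list genes called for NPC against ES were 51 to 66 over the same settings, chosen for them after seeing the data. Without F1-23 the log2 change was 17.71 for Chl1 (its ES counts are then 0), 10.04 for Itgb8, 7.45 for Timp4 and -5.69 for Acan, and without F1-21.6 it was 10.83, 6.79, 5.98 and -4.26 for the same genes; Timp1 was at -7.42 without C2 and -6.86 without mC3. Of results for single genes, 551 kept direction and call under an alternative, 86 lost the call, 4 gained it and 5 reversed. Depth limits the ES shares most, with 70 counts for Ncan and 73 for Bcan in F1-21.6.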
